A study of Mus musculus with 30 samples.

Results

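The genes described here are the hair-type keratins and the keratin-associated proteins (KAPs), the structural proteins of hair, nail and the hard spines of the tongue. They were chosen by name: protein-coding genes with a symbol starting in Krtap, or among Krt25 to Krt28, Krt31 to Krt40, Krt71 to Krt75 and Krt81 to Krt87, with at least 10 counts over all samples. Of 80 protein-coding genes with such a symbol, 13 had no count and 12 had fewer than 10, which left 55 of the 55487 genes listed. These 55 genes are 21 keratins and 34 KAPs, and 32 lie on chromosome 11, 12 on chromosome 16, 9 on chromosome 15 and 1 each on chromosomes 7 and 10. KAP genes that the annotation lists only under predicted-gene symbols were not included. RNA was sequenced from 30 samples of a mouse model in which the mutagen 4-nitroquinoline-1-oxide (4NQO) in drinking water induces oral carcinoma. The labels give 3 samples as normal tissue, 8 as hyperplasia, 7 as dysplasia, 6 as carcinoma in situ and 6 as invasive carcinoma. All samples, the normal ones included, carry 1 protocol: male C57BL/6J mice, 4NQO at 100 ug/mL for 10 weeks, begun at 6 weeks of age. The labels therefore do not say whether the mice behind the normal samples drank 4NQO, nor do they give the age at sampling, the site in the mouth or whether samples came from separate mice. The p-values below measure the spread between these samples, which may in part be technical.

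Hair keratins form filaments from 1 acidic (type I) and 1 basic (type II) partner, and KAPs rich in cysteine or glycine and tyrosine embed and cross-link those filaments into a hard keratin. In the mouse tongue the same genes are used by the filiform papillae, the horny spines that cover its upper surface, while the epithelium between the papillae makes Krt4 and Krt13 and stays softer. The transcription factors Hoxc13, Foxn1, Lef1, Msx2 and Dlx3 are known regulators of hair keratin genes in the hair follicle. Other keratins named in the rule belong to the inner root sheath (Krt25, Krt27, Krt28, Krt71 and Krt73) or the companion layer (Krt75) of the follicle.

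Each library held between 17725604 and 28023098 counts, and 17638 genes had enough counts to be tested. Levels are given in CPM, counts scaled to library size, and a gene was called where its adjusted p from edgeR was under 0.05. Unless another fit is named, edgeR stands for the fit over all 30 samples. Sample codes have the letter D in normal tissue, the letter A in hyperplasia, B in dysplasia, and C in the carcinomas of either stage. Anything else that follows the code letter cannot be told apart from stage, except between the carcinoma stages. Scores of tissue marker genes also differed by stage. A score of 15 epithelial genes without members averaged 9.6 ± 0.28 log2 CPM in invasive carcinoma (n = 6) against 8.87 ± 0.127 in normal tissue (n = 3). A score of 20 skeletal muscle genes averaged 10.1 ± 0.434 in invasive carcinoma against 11 ± 0.282 in normal tissue. In tissue of this kind, fewer cells of a type and less RNA per cell cannot be told apart.

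The label that these genes mark tongue papillae could be checked only in part. Krt36 and Krt84, the keratins that lead the list, were present at 228 CPM or more and 173 CPM or more in every sample. Krt13 and Krt4, the keratins of the surface between papillae, averaged 22570 ± 4435 and 18790 ± 4389 CPM in normal tissue. Some genes of hair-bearing skin were at or near 0: the inner root sheath keratins Krt25, Krt27, Krt28 and Krt71 had 19 to 37 counts each over all 30 samples, the melanocyte enzyme gene Tyr had 0, and the sebaceous enzyme gene Awat1 had 6. Others were not, with 768 counts for the inner root sheath keratin Krt73, 410 for the melanocyte gene Tyrp1, 224575 for Elovl4 and 44324 for Scd1 on the sebaceous list, and 1137129 for Lor of the cornified layer. The labels do not name the tongue, and the papillae themselves were not observed here.

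The levels of the members were very unequal. By reads, Krt36 and Krt84 made up 30.3% and 22.4% of the members' summed mean CPM over 30 samples, and the 13 most abundant genes made up 90%. Per kilobase of exon, Krt36, a type I hair keratin, led with 513 CPM/kb, followed by its type II counterpart Krt84 with 240, Krtap3-1 with 220, Krtap13 with 153, Krtap3-3 with 131 and Krtap13-1 with 120 CPM/kb. The filter on low counts kept 38 members for testing. The 17 that it removed had 12 to 82 counts in all and no more than 0.703 CPM in any sample; they are 6 keratins and 11 KAPs. Of the 38, 35 met the minimum in all 5 stages, and none met it in normal tissue alone. Krt73, Krtap6-2 and Krtap21-1 met it in 3, 3 and 1 of the stages, and not in normal tissue.

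The summed level of the members, over which Krt36 and Krt84 weigh most, had a median of 5267 CPM in the normal samples (3362 to 5531), 2828 CPM in hyperplasia (1509 to 3909), 3607 CPM in dysplasia (1878 to 5054), 2445 CPM for carcinoma in situ (630 to 3247) and 1611 CPM for invasive carcinoma (628 to 2991). All 6 invasive samples and all 6 in situ samples thus lay below the lowest normal sample, while hyperplasia and dysplasia overlapped it. In the test over the 5 stages 19 of the 38 tested members were called, against 53.2% of all tested genes, a share near the background. These 19 were 7 of 15 keratins and 12 of 23 KAPs. The count was 8 without normal sample D01 and 10 without normal sample D03. With the epithelial score in the model 2 members were called, beside 3089 of all 17638 tested genes.

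**Figure D1:**
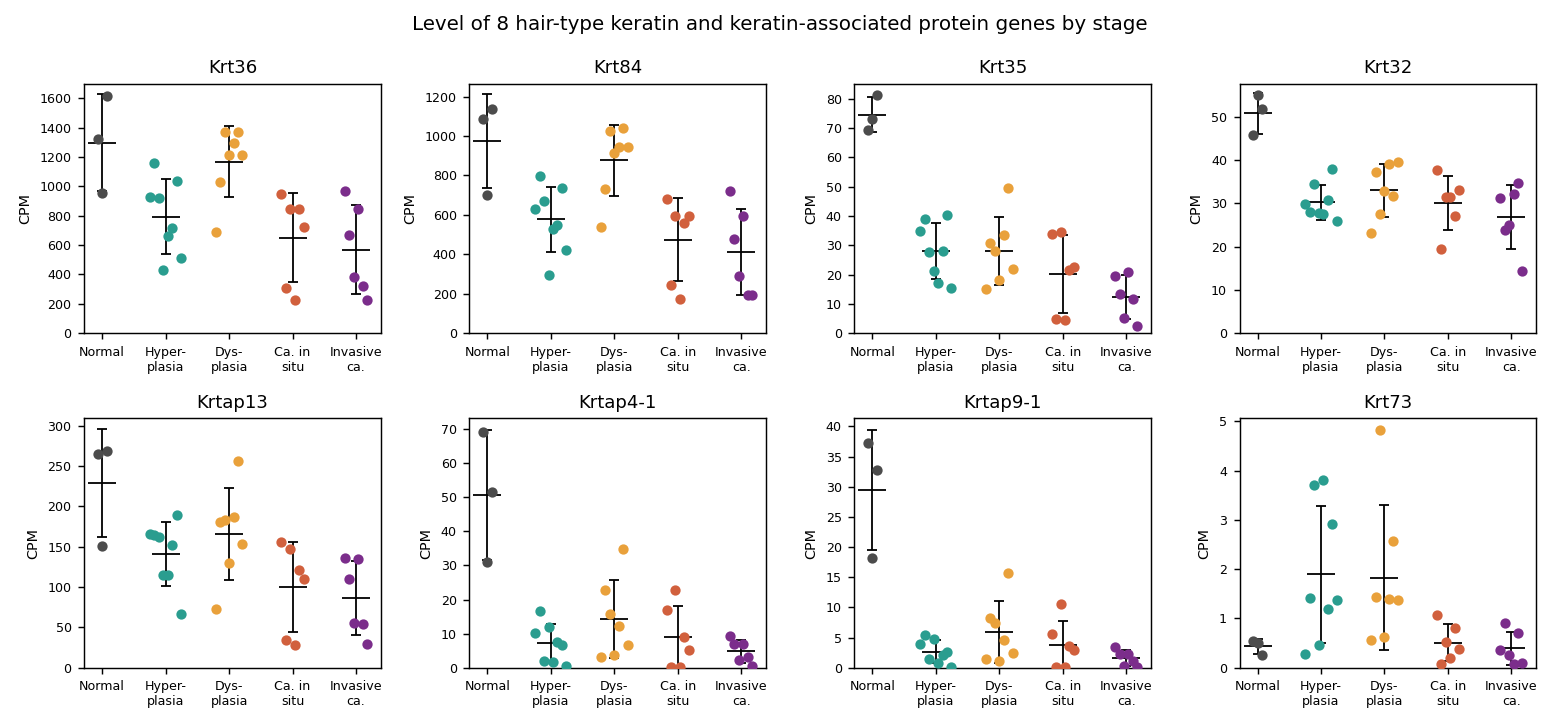
Each point is 1 sample, with CPM on the vertical axis starting at 0 and the 5 stages from left to right; the horizontal mark is the group mean and the bar ± 1 SD (n = 3, 8, 7, 6 and 6). The normal samples stand highest for Krt35, Krt32 and Krtap9-1, Krtap4-1 overlaps through dysplasia sample B06, Krt36 and Krt84 are nearly as high in dysplasia as in normal tissue, and Krt73 is highest in hyperplasia and dysplasia.

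Among type I hair keratins, Krt36 had 954, 1322 and 1617 CPM in the 3 normal samples. Its lowest, median and highest levels were 428, 817 and 1162 CPM in hyperplasia, 687, 1217 and 1369 in dysplasia, 228, 783 and 945 for carcinoma in situ, and 228, 523 and 971 for invasive carcinoma. Dysplasia overlapped the normal range almost fully, while each carcinoma stage reached down to 228 CPM. Against normal tissue, the log2 change of Krt36 was -1.19 ± 0.397 (SE) in invasive carcinoma (adjusted p = 0.0161, 5 of 6 samples below every normal sample) and -1.0 ± 0.399 in carcinoma in situ (adjusted p = 0.049). Without normal sample D03 the invasive difference was no longer called, and the in situ call was lost without any of D01, D02, D03, C02, C07 or C11. In hyperplasia and dysplasia Krt36 differed from normal tissue by -0.71 and -0.15 (adjusted p = 0.217 and 0.819).

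Krt35, an acidic hair keratin known from the hair matrix and cortex, separated normal tissue from all other stages. It had 69.5, 73.2 and 81.3 CPM in the normal samples, 15.3, 27.9 and 40.4 CPM as lowest, median and highest in hyperplasia, 14.98, 27.9 and 49.4 in dysplasia, 4.49, 22.1 and 34.4 for carcinoma in situ, and 2.46, 12.6 and 20.95 for invasive carcinoma. No sample of any later stage reached the lowest normal sample. Krt35 fell by 2.61 ± 0.539 on the log2 scale in invasive carcinoma (adjusted p = 0.000431) and by 1.88 ± 0.534 in carcinoma in situ (adjusted p = 0.00786), and both calls held with each sample left out in turn. In dysplasia it fell by 1.41 at an adjusted p of 0.0449, a call that ended without any normal sample and without 6 of the 7 dysplasia samples. In hyperplasia the log2 difference of Krt35 was -1.42 and was not called by edgeR (adjusted p = 0.0572). DESeq2, limma-voom and the fit of only these groups called it, while the other fits tried did not.

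Krt32, a type I keratin of the hair cuticle, had smaller log2 changes but also a smaller spread. Its level was 45.7, 51.9 and 55.0 CPM in the normal samples, with a median of 28.9 CPM in hyperplasia (25.8 to 37.9), 32.8 in dysplasia (23.1 to 39.6), 31.4 for carcinoma in situ (19.4 to 37.6) and 28.1 for invasive carcinoma (14.4 to 34.6). The normal samples did not overlap with any other stage, and the 4 other stages overlapped each other. Krt32 was called in all 4 comparisons with normal tissue, with log2 changes of -0.75 in hyperplasia, -0.62 in dysplasia, -0.76 for carcinoma in situ and -0.92 for invasive carcinoma, and adjusted p-values of 0.00734, 0.0174, 0.00359 and 0.000459. The hyperplasia call was lost without D02 and the dysplasia call without D02 or D03. A predicted gene on the opposite strand, Gm11571, overlaps Krt32, and the strand setting of the counting is not given in the sources used here.

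The other type I hair keratins were lower in invasive carcinoma by similar or larger steps. Krt39, a cuticle keratin, averaged 7.15 ± 4.13 CPM in invasive carcinoma (n = 6) and 28.9 ± 9.83 in normal tissue (n = 3), a log2 change of -2.01 ± 0.593 (adjusted p = 0.00749). Krt34, Krt31 and Krt33a, keratins of the hair cortex, fell, with log2 changes of -1.68, -1.501 and -1.70 (adjusted p = 0.0232, 0.0335 and 0.0493). The call of Krt34 was lost without D01 or D03, and those of Krt31 and Krt33a without any normal sample or without C06, C09 or C12. Krt33b had 20.5 ± 11.8 CPM in invasive carcinoma against 50.7 ± 9.77 in normal tissue, and its log2 difference of -1.30 was not called (adjusted p = 0.105). Of the 9 type I hair keratin genes among the members, Krt40 was the 1 too low to test.

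Among type II hair keratins Krt84, known from the filiform papillae, followed Krt36. It had 702, 1089 and 1137 CPM in the normal samples, with medians of 590 CPM in hyperplasia (297 to 797), 943 in dysplasia (537 to 1039), 577 for carcinoma in situ (173 to 680) and 382 for invasive carcinoma (193 to 720). In invasive carcinoma 5 of 6 samples lay below every normal sample, and the log2 change was -1.25 ± 0.38 (adjusted p = 0.00919), a call kept with each sample left out. In carcinoma in situ Krt84 fell by 1.04 ± 0.382 (adjusted p = 0.0332), a call lost without D01, D03, C02 or C07, and in hyperplasia its log2 difference from normal tissue was -0.75 (adjusted p = 0.166).

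The remaining type II hair keratins lie side by side on chromosome 15 and share sequence, so counting could split their reads: 43.5% of the 50-base words of Krt81 and 43.3% of those of Krt86 occur in another gene, as do 36.9% of Krt87 and 23.2% of Krt83. Krt87 averaged 103 ± 62.0 CPM in invasive carcinoma and 268 ± 75.9 in normal tissue, with a log2 change of -1.38 (adjusted p = 0.0253). Krt81 and Krt86, keratins of the hair cortex, fell by 1.36 and 1.83 on the log2 scale (adjusted p = 0.0469 and 0.0306). Each of these 3 calls was lost without any 1 of D01, D03, C06, C09 or C12, and that of Krt81 also without D02. Krt83 had 37.9 ± 23.0 CPM in invasive carcinoma against 78.1 ± 22.1 in normal tissue (log2 difference -1.04, adjusted p = 0.0865).

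The KAPs of high and middle abundance, which embed the filaments, were led by the KAP13 and KAP3 families. Krtap13 had 151, 265 and 269 CPM in normal tissue, with medians of 157 CPM in hyperplasia, 180 in dysplasia, 116 for carcinoma in situ and 83.0 for invasive carcinoma. In invasive carcinoma it reached 29.0 to 136 CPM, all below the lowest normal sample, and fell by 1.40 ± 0.464 on the log2 scale (adjusted p = 0.0161). Krtap3-1 averaged 79.8 ± 46.6 CPM in invasive carcinoma and 222 ± 53 in normal tissue, a log2 change of -1.48 ± 0.482 (adjusted p = 0.0148). Both calls were lost without D01, and that of Krtap13 also without D03. In hyperplasia the log2 differences of Krtap13 and Krtap3-1 were -0.69 and -0.61 (adjusted p = 0.313 and 0.405).

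The KAP4 family, cysteine-rich proteins encoded in a cluster on chromosome 11, had the lowest median log2 change of the KAP families in invasive carcinoma, -3.37. The 8 KAP4 genes together had 137, 253 and 335 CPM in the normal samples. Their lowest, median and highest sums were 3.87, 36.1 and 82.0 CPM in hyperplasia, 14.7, 60.3 and 180 in dysplasia, 1.83, 33.2 and 114 for carcinoma in situ, and 1.75, 23.1 and 45.0 for invasive carcinoma. Every sample of hyperplasia and of both carcinoma stages lay below every normal sample, and dysplasia overlapped through sample B06 with 180 CPM.

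Krtap4-1, the KAP4 gene with the most reads, had 31.03, 51.7 and 69.0 CPM in normal tissue. It ran from 0.637 to 16.6 CPM in hyperplasia, from 3.28 to 34.8 in dysplasia, from 0.296 to 22.8 for carcinoma in situ and from 0.426 to 9.38 for invasive carcinoma. Its log2 change against normal tissue was -2.81 ± 0.853 in hyperplasia (adjusted p = 0.0285), -2.48 ± 0.923 in carcinoma in situ (adjusted p = 0.0366) and -3.39 ± 0.945 in invasive carcinoma (adjusted p = 0.00522). The invasive call held with each sample left out, the hyperplasia call was lost without any 1 of the 3 normal samples, and the in situ call was lost without any normal sample or without C02, C07, C10 or C11. In dysplasia the log2 difference was -1.83 (adjusted p = 0.128). Copies in this family share sequence, up to 81.3% of the 50-base words of Krtap4-13 but 0% of Krtap4-16. Krtap4-16, named after its values were seen, fell by 2.98 ± 0.83 in invasive carcinoma (adjusted p = 0.00511).

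Krtap9-1 and Krtap1-5, other cysteine-rich KAPs on the same chromosome, had larger log2 changes in invasive carcinoma than the KAP4 genes. Krtap9-1 had 18.2, 32.7 and 37.3 CPM in the normal samples, a median of 2.36 CPM in hyperplasia (0.049 to 5.49), 4.60 in dysplasia (1.16 to 15.7), 3.21 for carcinoma in situ (0.125 to 10.6) and 1.71 for invasive carcinoma (0.0473 to 3.42). No later sample reached the normal range. Its log2 changes were -3.46 ± 0.854 in hyperplasia, -2.95 ± 0.921 for carcinoma in situ and -4.22 ± 0.967 for invasive carcinoma (adjusted p = 0.00833, 0.0141 and 0.00108). In dysplasia its log2 difference was -2.32 (adjusted p = 0.0511), and 36.6% of its 50-base words are shared with other genes.

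Krtap1-5 had 5.35, 7.30 and 9.16 CPM in normal tissue and medians of 1.02 CPM in hyperplasia, 0.982 in dysplasia, 0.574 for carcinoma in situ and 0.546 for invasive carcinoma, where 1 sample, C12, had no count. The highest later sample, in dysplasia, had 3.95 CPM. Krtap1-5 was called in all 4 comparisons with normal tissue, with log2 changes of -2.82, -2.39, -3.10 and -3.90 and adjusted p-values of 0.00628, 0.0137, 0.00226 and 0.000272 from hyperplasia to invasive carcinoma. All 4 calls held with each sample left out, and only 3.8% of its 50-base words occur in other genes.

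Hyperplasia, the earliest lesion, was compared with normal tissue. Here 11 of the 38 tested members fell, against 6.07% of all tested genes, and none rose by edgeR, against 8.22%. These 11 were Krt32 and 10 KAPs: 7 of the 8 KAP4 genes, Krtap1-5, Krtap9-1 and Krtap26-1, a KAP of the chromosome 16 cluster. The KAP4 genes had a median log2 difference of -2.75, the 23 tested KAPs one of -1.98 and the 15 tested keratins one of -0.75, beside 0.01 over all genes. In 16 members every hyperplasia sample lay below every normal sample, which held for 5.52% of all tested genes, and in none did every sample lie above, against 9.13%. The count of 11 was 4 without D01, 3 without D02, 4 without D03, 6 without A03 and 7 without A05, A06, A07 or A08. It was 4 with the epithelial score in the model, beside 2074 of all tested genes. Only 1 of the 15 epithelial genes rose in this comparison.

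Dysplasia against normal tissue gave few calls. Krt32, Krt35 and Krtap1-5, 3 of 38 members, fell against 12.4% of all tested genes, and none rose by edgeR, against 13.3%. In 5 members every dysplasia sample lay below every normal sample, which held for 8.95% of all tested genes. The median log2 difference was -0.75 over the members and -1.83 over the 8 KAP4 genes, with no KAP4 gene called. The count was 1 without D02 or D03. With limma-voom 13 members were called, beside 6865 of all 17638 tested genes.

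Dysplasia was also set against hyperplasia, the stage before it. No member was called by edgeR, where 5.18% of all tested genes were (2.99% higher and 2.19% lower). Before adjustment 3 members had a p under 0.05. DESeq2 called 0 members and limma-voom 1, beside 1349 and 3600 of all tested genes. The log2 differences were positive for 34 of 38 members with a median of 0.42. Krt36 had a median of 1217 CPM in dysplasia and 817 in hyperplasia (log2 difference 0.56 ± 0.3, adjusted p = 0.289), and Krtap4-1 one of 12.3 CPM and 7.13 CPM (0.98 ± 0.716, adjusted p = 0.448). A higher level in dysplasia than in hyperplasia was therefore not shown for any single member.

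In carcinoma in situ 18 of 38 members fell against normal tissue, compared with 18.2% of all tested genes, and none rose, against 19.4%. The 18 included all 8 KAP4 genes (median log2 change -2.48), 4 of 8 tested type I hair keratins, Krt84 among the type II hair keratins, 2 of 3 KAP3 genes, Krtap13, Krtap1-5 and Krtap9-1. In 19 members every in situ sample lay below every normal sample, against 12.5% of all tested genes. The count depended on single libraries and on the fit: it was 4 without D01, 5 without D03, 5 without C02, 5 without C07 and 9 without C11, and 2 where only these 2 groups were fitted. With the epithelial score in the model it was 0, beside 677 of all tested genes.

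Invasive carcinoma differed from normal tissue in the largest number of members. Of 38, 32 fell against 22.7% of all tested genes, and none rose by edgeR, against 23.4%; in either direction 46.1% of all tested genes were called. The members' median log2 difference was -1.80, ranging from -4.22 to 0.92, beside 0.02 over all genes. All 8 KAP4 genes fell with a median of -3.37, as did the 3 KAP3 genes (median -1.61), 3 KAP1 genes (-2.17), 2 KAP9 genes (-3.03) and 2 KAP13 genes (-1.45), together with 7 of 8 type I and 4 of 5 type II hair keratins. In 29 members every invasive sample lay below every normal sample, against 15.2% of all tested genes. The 6 not called were Krt33b, Krt83, Krt73, Krt75 and the KAPs Krtap6-2 and Krtap21-1, which are named here after their values were seen and had log2 differences of -1.88 and -1.25 (adjusted p = 0.0769 and 0.289). The count was 18 without D01 and 18 without D03.

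The epithelial score moved in the other direction over the same samples. It had 9.29 to 10.09 log2 CPM in invasive carcinoma against 8.77 to 9.01 in normal tissue, with no overlap. Of its 15 genes 12 rose, led by the basal keratin Krt14 with a log2 change of 2.09. For 1 of the 15 the log2 difference was negative, at -0.42. Whether the score follows the number of epithelial cells was not tested. In the same comparison 19 of 20 skeletal muscle genes fell. With the epithelial score in the model 0 members were called in invasive carcinoma and the members' median log2 difference was -0.92; 462 of all tested genes were then called. With the muscle score in the model 2 members were called, beside 1593 of all tested genes. Of 6 markers of the epithelium between papillae, 4 fell in invasive carcinoma against normal tissue: Crnn, which encodes cornulin, with a log2 change of -2.32, and the keratins Krt76 (-1.99), Krt4 (-0.71) and Krt78 (-0.77), with adjusted p-values of 0.000241, 0.000549, 0.023 and 0.0283. Krt13 was not called.

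**Figure D2:**
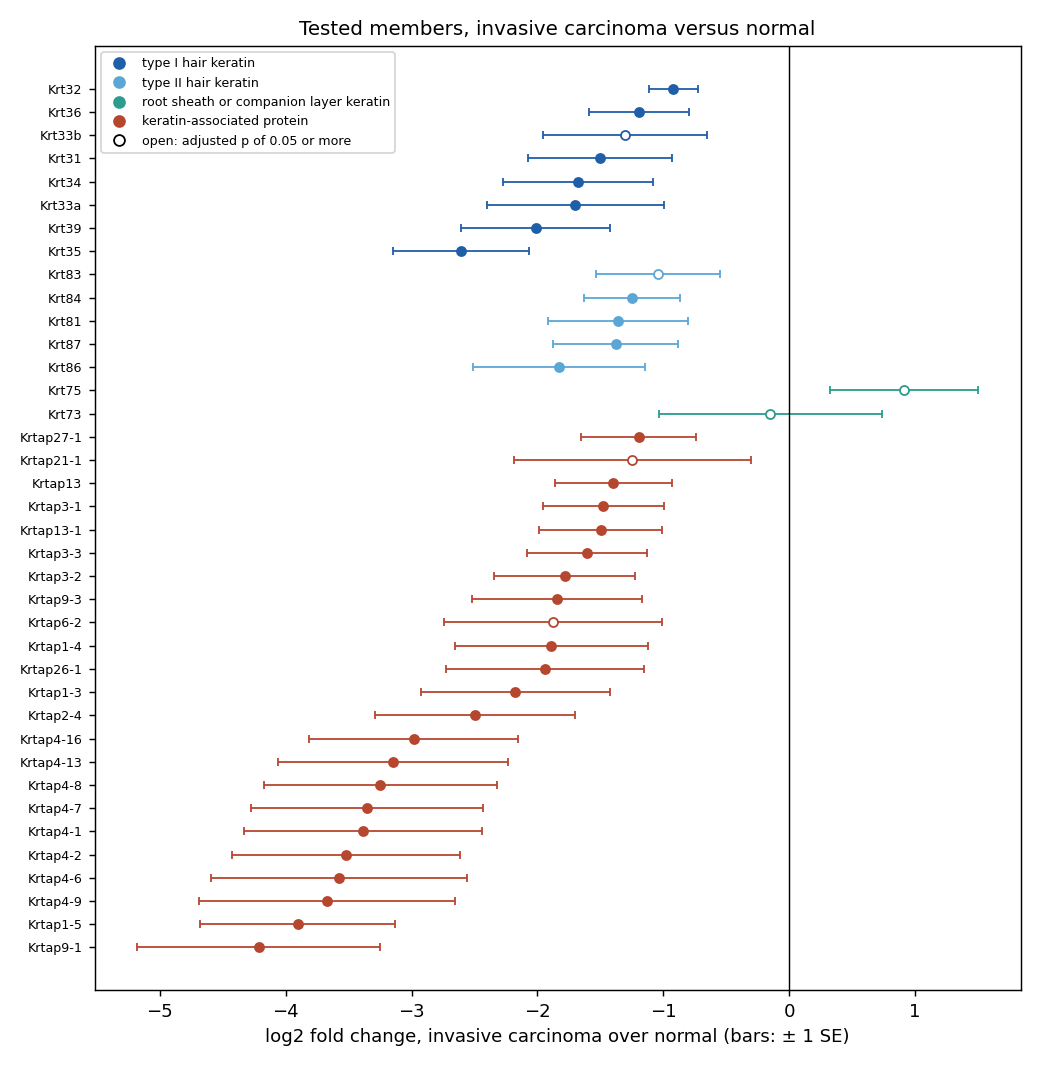
Each row is 1 tested member, and the horizontal axis is its log2 fold change in invasive carcinoma (n = 6) over normal tissue (n = 3) with ± 1 SE; filled points were called and open points were not. The KAP4 genes, Krtap1-5 and Krtap9-1 lie lowest, between -2.98 and -4.22, hair keratins lie between -0.92 and -2.61, and Krt75 alone lies above 0.

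The step from dysplasia to carcinoma in situ and the step to invasion were tested by themselves. No member was called in carcinoma in situ against dysplasia by edgeR, where 5.47% of all tested genes were (2.99% higher and 2.47% lower). Before adjustment 3 members had a p under 0.05. DESeq2 and limma-voom called 2 members each, beside 1473 and 2270 of all tested genes. Without B01 or without C01, 1 member was called. All 38 log2 differences were negative, with a median of -0.69, and Krt36 gave -0.85 ± 0.328 (adjusted p = 0.112). Between invasive carcinoma and carcinoma in situ no member and 0% of all tested genes were called, no member had an unadjusted p under 0.05, and DESeq2 and limma-voom called 0. Krt36 had an approximate 95% interval of -0.85 to 0.47 there, and Krtap4-1 one of -2.51 to 0.70, so changes within these ranges were not excluded.

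With both carcinoma stages set against hyperplasia and dysplasia, a comparison without the normal samples, 11 of 38 members fell against 18.8% of all tested genes, and none rose, against 19.6%. Keratins made up 8 of the 11: Krt36, Krt84, Krt87, Krt81, Krt83, Krt35, Krt39 and Krt73. The 3 KAPs were Krtap13, Krtap13-1 and Krtap3-1. Krt36 fell by 0.67 ± 0.228 on the log2 scale (adjusted p = 0.0225), Krt84 by 0.69 ± 0.219 (adjusted p = 0.0147) and Krt87 by 0.93 ± 0.287 (adjusted p = 0.0133), and these 3 calls held with each sample left out. No KAP4 gene was called, with a median log2 difference of -0.65, and Krtap4-1 gave -0.61 ± 0.547 (adjusted p = 0.392). With the epithelial score in the model 1 member was called, Krt73, beside 983 of all tested genes. The count of 11 was 4 without C02, C06, C09 or C12, 5 without B06, and 6 without A02 or C07.

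Krt73 and Krt75 were the tested root sheath and companion layer keratins. The edgeR fit over all 30 samples called neither in any comparison with normal tissue. Krt73, an inner root sheath keratin, was lowly expressed in normal tissue, with 0.264, 0.507 and 0.542 CPM. Its lowest, median and highest levels were 0.277, 1.39 and 3.81 CPM in hyperplasia, 0.568, 1.40 and 4.82 in dysplasia, 0.0845, 0.450 and 1.06 for carcinoma in situ, and 0.0711, 0.309 and 0.902 for invasive carcinoma. Every dysplasia sample lay above every normal sample, which held for 11.6% of all tested genes, and 6 of 8 hyperplasia samples did. Against normal tissue the log2 differences of 2.11 ± 0.83 in hyperplasia and 2.07 ± 0.838 in dysplasia were not called by edgeR (adjusted p = 0.0847 and 0.0671), while DESeq2 called both (adjusted p = 0.032 and 0.0271).

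In the carcinoma stages Krt73 fell by 2.04 ± 0.437 on the log2 scale against hyperplasia and dysplasia together (adjusted p = 0.000769). This call held with each sample left out and under every other fit tried for it. Krt75, the companion layer keratin, had 2.77 to 4.77 CPM in normal tissue, a median of 8.37 CPM in dysplasia (2.55 to 17.6) and 6.74 CPM in invasive carcinoma (3.93 to 9.20). Its log2 differences from normal tissue were 1.31 ± 0.588 in dysplasia and 0.92 ± 0.589 in invasive carcinoma (adjusted p = 0.0989 and 0.208); the second was called where only these groups were fitted (adjusted p = 0.0467). A predicted gene on the opposite strand, Gm44460, overlaps Krt75.

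Within each stage the summed level of the members differed between samples. In carcinoma in situ, samples C02 and C07 had 869 and 630 CPM over all members while the other 4 had 2380 to 3247. In invasive carcinoma, C06, C09 and C12 had 1083, 1100 and 628 CPM while the other 3 had 2123 to 2991. C12 had the highest epithelial score of the 30 samples (10.09) and the lowest muscle score (9.3). C02 and C09 followed in the epithelial score with 9.75 and 9.74. C06 and C07, also low in members, had 9.51 and 9.47, and C01, with 3247 CPM over all members, had 9.54. Whether tissue content takes part in the low levels was not tested. In hyperplasia A08 was lowest with 1509 CPM and in dysplasia B01 with 1878. These 2 samples also had the highest summed level of 10 salivary gland markers in their stage, and C12 had the highest among invasive samples. The samples highest in normal tissue and carcinoma in situ are not given here, so no link over all stages is described. That sum ran from 49.7 to 10250 CPM in normal tissue, 43.0 to 20880 in hyperplasia, 22.7 to 35410 in dysplasia, 43.5 to 9267 for carcinoma in situ and 72.0 to 12050 for invasive carcinoma. The salivary mucin gene Muc5b had 10615 CPM in A08 against 0.545 to 502 in the other hyperplasia samples, and 24993 CPM in B01 against 1.82 to 64.0 in the other dysplasia samples. Of the 10 markers Prol1 was near 0, with 4 counts in all, and 1 of the 9 tested was called over the 5 stages. The part of salivary tissue in the low levels was not tested.

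**Figure D3:**
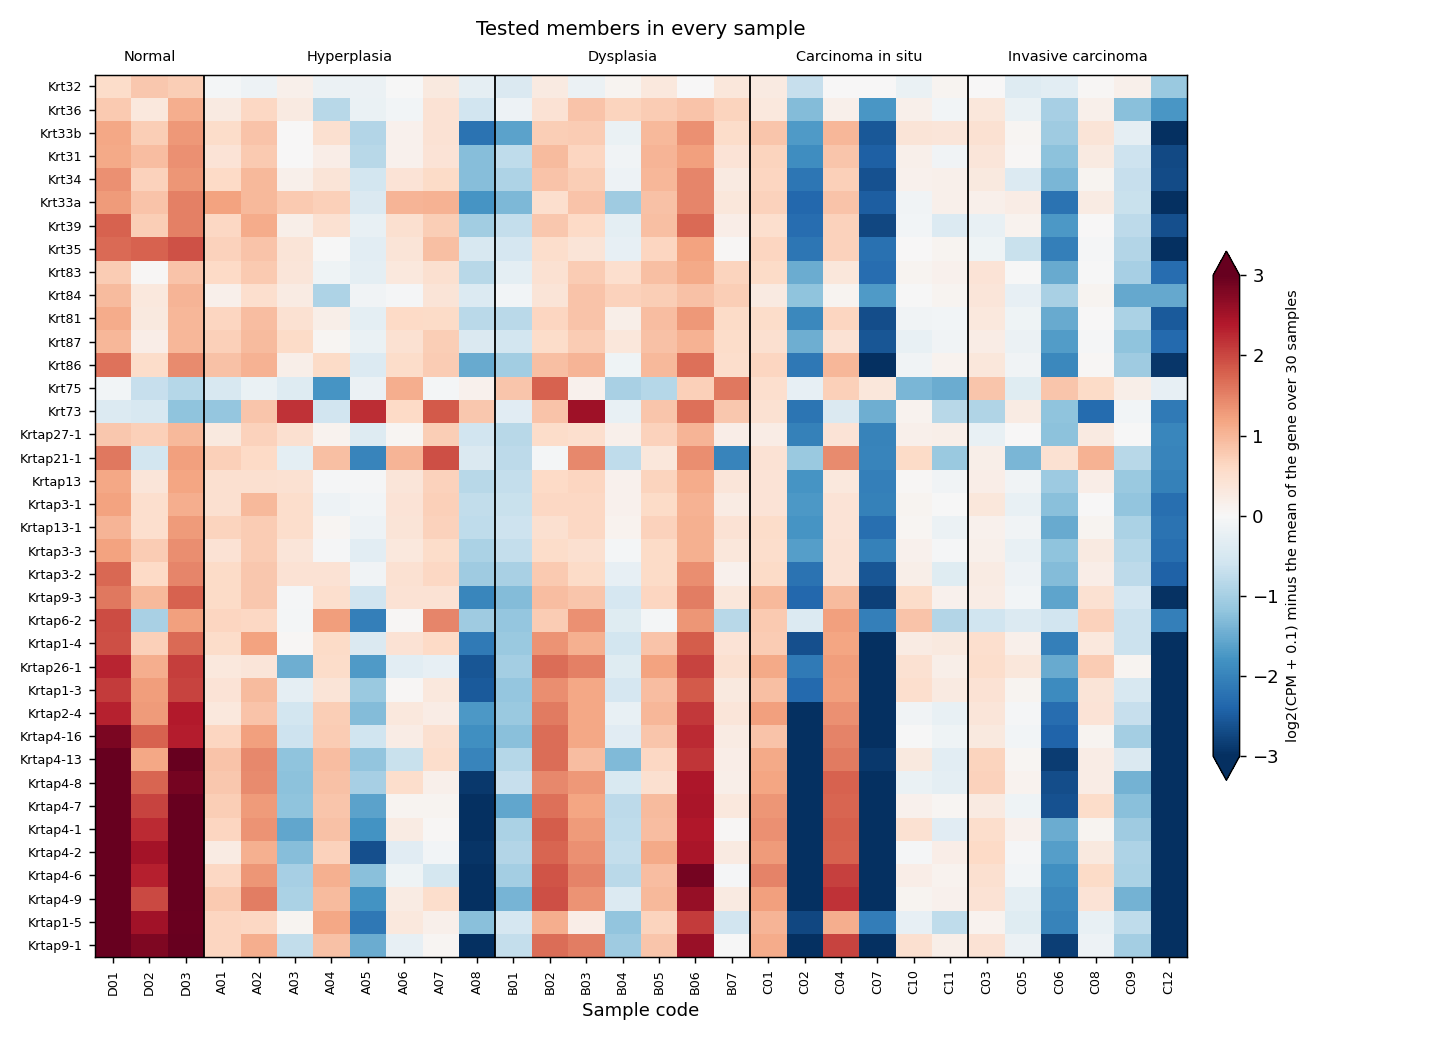
Rows are the 38 tested members, keratins above KAPs, columns the 30 samples by stage, and colour is log2(CPM + 0.1) minus the gene's mean over all samples, with the scale ending at 3 in each direction. Columns C02, C07 and C12 are low for nearly all hair keratins and KAPs, A08 is low mainly in the KAP rows at the bottom, and Krt75 does not share these patterns.

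To see whether the mix of members changed, levels were set against Krt36 in the same sample. Krt84 had 61.4 to 84.6 CPM per 100 CPM of Krt36 over all 30 samples, with means of 73.0 ± 7.52 in invasive carcinoma and 75.4 ± 6.25 in normal tissue. The 8 KAP4 genes together had 0.766 to 4.75 CPM per 100 CPM of Krt36 in invasive carcinoma (median 4.62, n = 6) and 14.3, 15.6 and 25.4 in normal tissue. In hyperplasia the ratio was 0.758 to 13.9 with a median of 4.26, in dysplasia 1.69 to 13.2 with a median of 4.65, and in carcinoma in situ 0.78 to 13.5 with a median of 4.23. Every later sample lay below the lowest normal sample in this ratio, A04, B06 and C04 by the least. Krt35 had 1.08 to 3.69 CPM per 100 CPM of Krt36 in invasive carcinoma and 5.03 to 7.68 in normal tissue. These ratios are a description, since Krt36 and the others were measured in the same libraries.

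**Figure D4:**
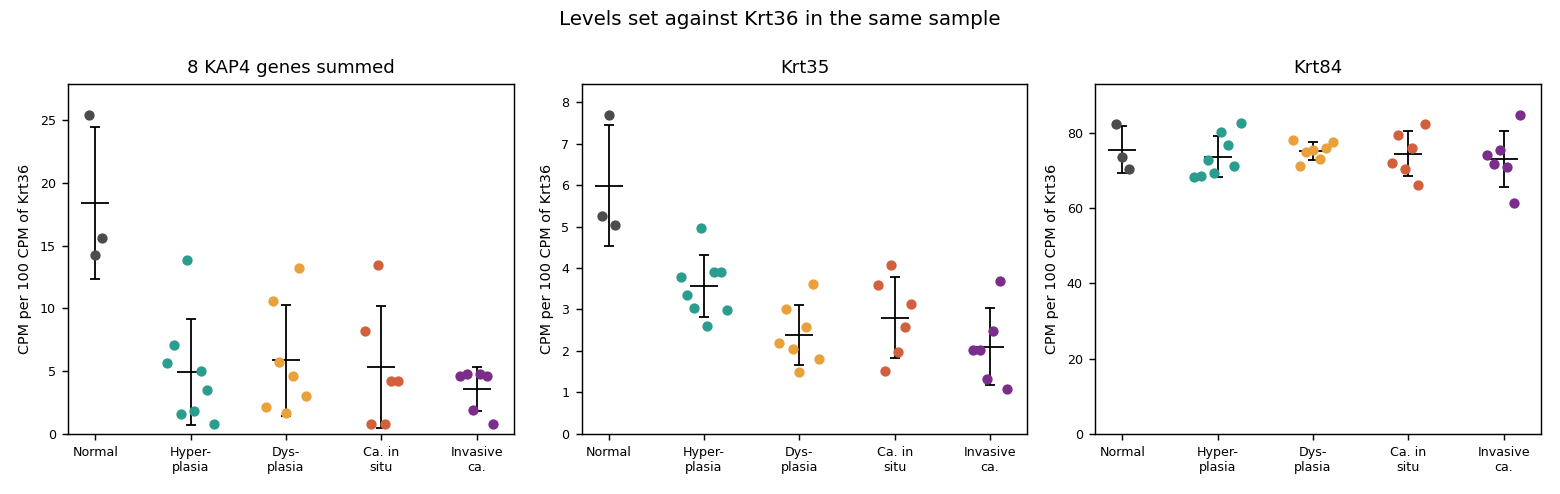
Each point is 1 sample and the vertical axis is CPM per 100 CPM of Krt36, for the 8 KAP4 genes summed, Krt35 and Krt84; marks and bars are means ± 1 SD. The KAP4 ratio is 14.3 or more in the 3 normal samples and 13.9 or less in all others, while the Krt84 ratio is similar in all stages.

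The start sites of the members were examined. A RefSeq start within 100 bases of the start in the gene annotation was found for 44 of the 55 members, 30 tested and 14 too low to test, and the 250 bases before it were searched. The letters TATAAA, the core of the TATA box that positions transcription, were found on either strand in 37 of the 44 (84.1%), against 12.4% of 32851 promoters of all genes. On the coding strand and beginning 40 to 20 bases before the start they were found in 26 (59.1%) against 2.0%. The forms bound by HOXC13 (TTAATNAA, TTAATNAG, TTAATNGA, TTAATNGG, TTTATNAA, TTTATNAG, TTTATNGA and TTTATNGG, either strand), which can overlap TATAAA, were found in 30 (68.2%) against 17.2%, and in 26 (59.1%) against 14.6% where no TATAAA overlapped. The TCF/LEF core CTTTGA or CTTTGT was found in 21 (47.7%) against 27.6%. Neighbouring KAP genes are copies of each other, so these promoters are not independent, and a match is a description of letters only.

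The 100 bases before the start of 5 members are given to show this layout, for the keratin pair that leads the list, the 2 KAPs that stood apart from the pair and the root sheath keratin, from RefSeq on build GRCm38.p6. Each is written 5′ to 3′ on the coding strand, and capitals mark a TATAAA that begins 40 to 20 bases before the start. All 5 genes lie on the minus strand, Krt36 at chr11:100105627-100105726, Krt84 at chr15:101532821-101532920, Krtap4-1 at chr11:99628240-99628339, Krtap1-5 at chr11:99581017-99581116 and Krt73 at chr15:101802361-101802460.
Krt36: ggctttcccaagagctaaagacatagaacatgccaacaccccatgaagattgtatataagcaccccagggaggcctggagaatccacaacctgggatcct
Krt84: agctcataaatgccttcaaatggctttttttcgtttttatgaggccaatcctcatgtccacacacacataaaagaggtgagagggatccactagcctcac
Krtap4-1: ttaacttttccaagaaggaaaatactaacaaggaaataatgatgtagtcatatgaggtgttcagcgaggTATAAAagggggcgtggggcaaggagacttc
Krtap1-5: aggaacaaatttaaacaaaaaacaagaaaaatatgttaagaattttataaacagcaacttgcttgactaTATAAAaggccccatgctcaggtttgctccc
Krt73: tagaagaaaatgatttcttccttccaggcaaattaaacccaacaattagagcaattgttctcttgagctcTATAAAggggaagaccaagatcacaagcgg
Krtap4-1 and Krtap1-5 carry the letters 31 bases before the start and Krt73 carries them 30 bases before it, and Krtap1-5 has a second copy farther up, left in lower case. The windows of Krt36 and Krt84 hold no TATAAA on the coding strand.

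The level of Krt36 was then set against 3 genes across the 30 samples, with permutation tests and adjustment over the 3 relations. Krt36 and Krt84 had a Pearson r of 0.991 and a Spearman rho of 0.994 on log2 CPM (permutation p = 1.0e-05 for both, the smallest that 100000 permutations can give; adjusted p = 1.5e-05). With stage means removed and samples permuted within stages, r was 0.986. Krt36 and Hoxc13, a homeobox factor of the hair follicle and the filiform papillae, had r = 0.894 and rho = 0.871 (permutation p = 1.0e-05 for both, adjusted 1.5e-05), and r = 0.906 with stage means removed. Within stages r was 0.884 to 0.984 for Hoxc13 and 0.979 to 0.992 for Krt84, over 6 to 8 samples each, and rho was 0.657 to 0.964 for Hoxc13 and 0.829 to 1.0 for Krt84.

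Krt36 and Krt13, the keratin of the softer surface, had r = 0.64 and rho = 0.636 (permutation p = 1.3e-04 and 1.5e-04, unchanged by adjustment), and r = 0.589 with stage means removed (permutation p = 0.00574). Within stages, as a description, r was 0.271, 0.815, 0.634 and 0.572 and rho was 0.119, -0.036, 0.714 and 0.257 from hyperplasia to invasive carcinoma. Without C07 and C12, the 2 samples farthest from the median of Krt36, r was 0.988 for Krt84, 0.876 for Hoxc13 and 0.564 for Krt13. The 3 normal samples are too few for a value of their own. Of the 6 markers of the epithelium between papillae, only Krt13 was set against Krt36. Its value therefore does not stand for the other markers. Correlations of Krt36 with all genes were not computed.

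**Figure D5:**
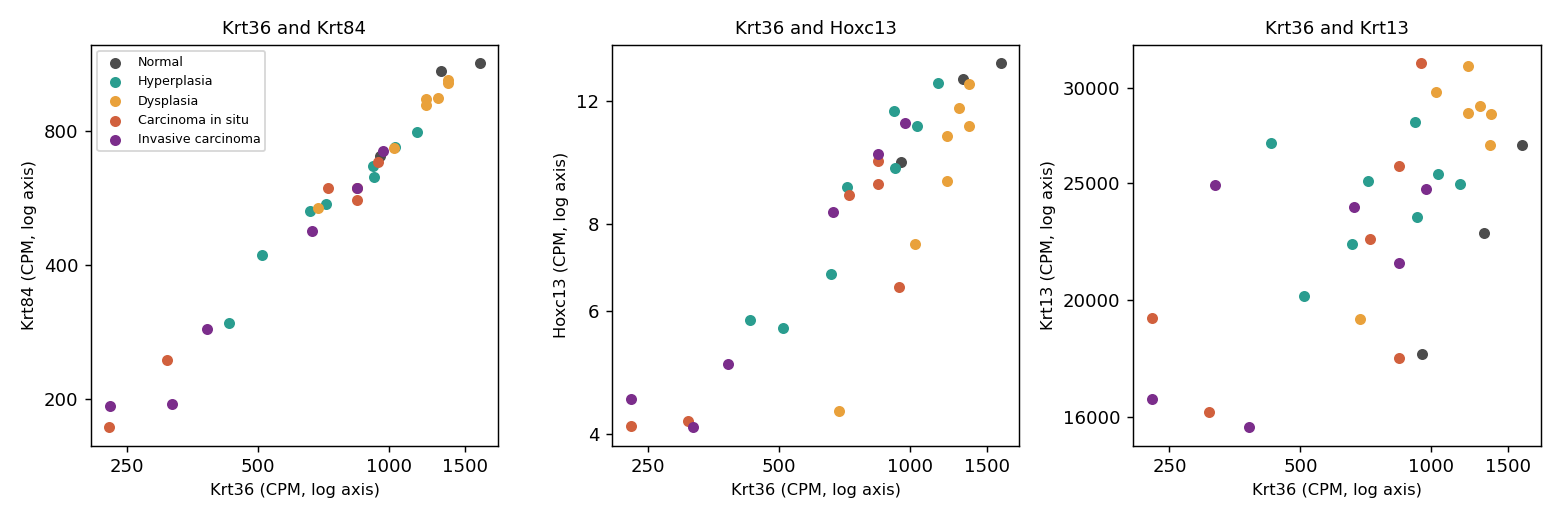
Each point is 1 sample coloured by stage, with Krt36 on the horizontal axis and Krt84, Hoxc13 or Krt13 on the vertical axis, all in CPM on log axes. Krt84 lies close to a line, Hoxc13 follows with more scatter, and Krt13 scatters most.

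Hoxc13 itself averaged 7.19 ± 3.05 CPM in invasive carcinoma and 12.1 ± 2.02 in normal tissue, and its log2 difference of -0.75 ± 0.333 was not called (adjusted p = 0.0663). Against hyperplasia and dysplasia its log2 difference in both carcinoma stages was -0.38 (adjusted p = 0.108). Foxn1, the factor missing in nude mice, had 24.3 ± 4.64 CPM in invasive carcinoma and 29.0 ± 4.25 in normal tissue (log2 difference -0.26, adjusted p = 0.345).

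Of 14 tested hair and filiform papilla transcription factors, 6 were called in invasive carcinoma against normal tissue, 1 higher and 5 lower. Of all tested genes 46.1% were called there, 23.4% higher and 22.7% lower, so the share called was near the background. Vdr, the vitamin D receptor, rose by 0.87 on the log2 scale (adjusted p = 0.000342), with 42.5 ± 7.13 CPM in invasive carcinoma and 23.2 ± 4.00 in normal tissue. Foxe1 fell by 0.67 (adjusted p = 0.00402), a call lost without D01, Cux1 by 0.26 (0.0126), a call lost without D03, and Msx2 by 0.84 (0.0355), a call lost without D02, D03, C06, C09 or C12. Against hyperplasia and dysplasia, both carcinoma stages had lower Dlx3 (log2 change -0.54, adjusted p = 0.00153), Lef1 (-0.51, 0.00331) and Msx1 (-0.37, 0.0162) and higher Vdr (0.46, 0.000518).

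Among 19 tested hair shaft and root sheath structure genes, 8 fell, against 22.7% of all tested genes, and 3 rose, against 23.4%, in invasive carcinoma against normal tissue. Selenbp1 fell by 1.30 (adjusted p = 2.1e-05), Prr9, a small proline-rich protein gene, by 2.08 (0.000594), and Cryba4, a crystallin, by 1.40 (0.000614). Prr9 averaged 10.9 ± 4.82 CPM in invasive carcinoma and 46.4 ± 6.31 in normal tissue. Tgm1, a transglutaminase that cross-links the cornified envelope, rose by 1.11 (adjusted p = 1.64e-05).

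Tchh, which encodes trichohyalin, a filament-binding protein of the inner root sheath and of filiform papillae, was highest in dysplasia. It averaged 1084 ± 400 CPM in normal tissue, 1486 ± 312 in hyperplasia, 2190 ± 633 in dysplasia, 728 ± 397 for carcinoma in situ and 725 ± 398 for invasive carcinoma. In both carcinoma stages Tchh fell by 1.31 on the log2 scale against hyperplasia and dysplasia (adjusted p = 0.000145), with lower Dsg1a, a desmoglein of cell junctions (-0.54, 0.000185) and Padi1 (-0.77, 0.000454), an enzyme that modifies arginines in hair and epidermal proteins. Against normal tissue the log2 difference of Tchh in invasive carcinoma was -0.58 (adjusted p = 0.248). Among 12 tested placode and papilla signals 4 rose and 4 fell in invasive carcinoma against normal tissue, beside 46.1% of all tested genes called in either direction. The growth factor gene Bmp4 fell by 1.096 (adjusted p = 0.000332) and Fgf7 by 0.76 (0.000352), and against hyperplasia and dysplasia the Wnt ligand gene Wnt10a rose by 0.54 in both carcinoma stages (0.000382).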

How the data were processed

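RNA sequencing libraries from 30 mouse samples were made with a stranded mRNA kit, per the labels. The submitters' processing notes name cutadapt 2.4, STAR 2.7.2a and the build GRCm38. How reads were assigned to genes, with which strand setting and annotation release, is not given in the sources used here. The authors deposited 1 table of whole-number counts per gene, not normalized, with 17725604 to 28023098 counts per sample. Of 55487 identifiers, 55227 (99.53%) matched GENCODE release M21, which gave symbols, classes and positions. The pathological stage in the labels gave the groups, and all samples were used.

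Counts were fitted with edgeR 4.0.16 in R 4.3.3, with TMM factors (0.892 to 1.057), the default expression filter (0.443 CPM in 3 samples) and a robust quasi-likelihood model with 1 mean per stage over all 30 samples. The biological coefficient of variation was 24%. The 9 comparisons were two-sided, with Benjamini-Hochberg adjustment over 17638 genes and genes with an adjusted p under 0.05 were called. The TMM factors also enter the CPM values, scores and correlations use log2 CPM with a prior count of 2, and the heat map adds 0.1 CPM. The test was also run on simulated counts drawn separately for each gene. That run does not cover genes that move together across samples, as the members do. Sequence sharing is the percentage of a gene's 50-base words found in another gene.

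Alternatives were DESeq2 1.42.0, limma-voom (limma 3.58.1), RLE factors, no expression filter, only the groups compared, the epithelial or muscle score as a covariate, a stricter threshold, a replicate block and leaving out each sample. Any keratin member could be named; of KAPs, the 12 with the highest mean CPM and, per comparison, the 6 called with the smallest adjusted p; of other lists, up to 4 called genes per comparison plus Hoxc13 and Foxn1. The members and lists were chosen with earlier results of these data known. Python 3.11.15 with scipy 1.17.1 ran the permutations.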

Additional observations from a re-analysis of the deposited data

Results flagged for a closer look

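Krt36 in dysplasia sample B01 stood apart from the other dysplasia samples, with 687 CPM against 1030 to 1370 CPM in the other 6. On log2 CPM with a prior count of 2, its gap to the nearest sample was 0.584 of the group's range, above Dixon's critical value of 0.568. It was the 1 flag among 108 groups of samples, where chance flags about 1 in 20. B01 also had 24993 CPM of the salivary mucin gene Muc5b against 1.82 to 64.0 in the other dysplasia samples, 4119 CPM of the salivary gene Bpifb2 against 0.179 to 4.49, and 115 CPM of the epithelial gene Epcam against 19.7 to 28.7. The part of these tissues in the low value was not tested.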

How the results depend on the processing

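Counts of called members moved with the fit, and the cause was not tested. At an adjusted p under 0.01 the counts were 6 over the 5 stages, 4 in hyperplasia, 0 in dysplasia, 3 for carcinoma in situ and 15 for invasive carcinoma against normal tissue, and 1 for both carcinoma stages against hyperplasia and dysplasia. In the same order they were 2, 4, 0, 0, 0 and 1 with the epithelial score as a covariate and 5, 4, 0, 1, 2 and 3 with the muscle score. They were 3, 2, 1, 2, 2 and 1 with the code number of each sample fitted as a replicate block. Calls over all tested genes, in that order, were 3089, 2074, 667, 677, 462 and 983 with the epithelial score. They were 4936, 1716, 761, 1783, 1593 and 4554 with the muscle score, and 6897, 2136, 4218, 5830, 3759 and 3987 with the block. Of 31 same-numbered pairs, 11 had a correlation of deviations over 0.1 (-0.564 to 0.512). Pairs with different numbers were not computed, so this cannot decide whether the code numbers pair the samples. No paired analysis was possible for invasive carcinoma against carcinoma in situ because these stages share no number. limma-voom called 31 members over the 5 stages, 13 in dysplasia and 31 in carcinoma in situ against normal tissue. It called 1 in dysplasia against hyperplasia and 2 in carcinoma in situ against dysplasia, where DESeq2 also called 2. Of all tested genes limma-voom called 11335, 6865, 7439, 3600 and 2270 in these comparisons, in the same order. With only the groups compared, 2 members were called in carcinoma in situ against normal tissue and 1 in dysplasia against hyperplasia. Of all tested genes 4590 and 1972 were called there. With no expression filter, 12 members were called in carcinoma in situ against normal tissue, beside 6236 of 25161 genes. The hair regulator, structure and signal genes called over the 5 stages were 28 in all. They were 8 of 14 tested regulators, 14 of 19 structure genes and 6 of 12 signal genes, beside 53.2% of all tested genes. Their number was 18 at the stricter threshold, 6 with the epithelial score, 14 with the muscle score and 13 with the block.

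With each sample left out in turn, the counts ran from 8 to 24 over the 5 stages, 3 to 11 in hyperplasia, 1 to 4 in dysplasia, 4 to 22 for carcinoma in situ and 18 to 33 for invasive carcinoma against normal tissue, 0 to 1 in carcinoma in situ against dysplasia and 4 to 14 for both carcinoma stages. The log2 difference of Krt36, Dysplasia versus normal, changed sign to 0.219 with the epithelial score, 0.153 with the muscle score, 0.032 with the block and 0.039 without D03 (-0.331 to 0.039 over the samples left out), and that of Krtap4-1 for both carcinoma stages to 0.066 with the epithelial score; none was called. RLE factors changed no call among 140 pairs of gene and comparison, nor did leaving out the normal samples, an alternative chosen after seeing the data, among 28 pairs that do not use them. The 3 normal samples limit every comparison with them.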
